A study of Mus musculus with 14 samples.

Results

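The genes described here are those by which a cell stores, imports, exports and senses iron: the ferritin chains Fth1 and Ftl1, the importers Tfrc, Slc11a1 and Slc11a2, the exporter Slc40a1, the heme-degrading enzyme Hmox1, and the regulators Ireb2, Aco1 and Ncoa4. They were taken from the table by their symbols, with no threshold on measured values, and are 10 of the 49315 genes in the count table. All 10 were found, and all 10 passed the filter on low counts. RNA-seq was performed on 14 libraries of primary microglia, which are macrophages that reside in brain tissue. 7 libraries came from TIMP2 knockout (KO) mice, which lack the metalloproteinase inhibitor TIMP2 in all tissues, and 7 from wild-type (WT) mice. Both genotypes were C57BL/6, and no library received a treatment. Each library was made from the pooled forebrains of 5 pups aged postnatal day 6 to 7, both sexes together, as an independent isolation. Cells were selected with CD11b microbeads, which bind any cell with this myeloid surface protein, and were cultured before collection. The comparison of KO with WT asked which transcripts differ when the cells and their environment have developed without TIMP2. A global knockout does not separate loss in microglia from loss in other cells.

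Between 38875344 and 48070236 reads were counted per library. Timp2 fell in KO microglia, as the labels require, from 464 ± 36.8 CPM (counts scaled by the size and composition of each library; SD, n = 7) to 122 ± 3.14, with no overlap between genotypes. The 10 microglial markers examined summed to between 8094 and 10400 CPM per library, and the lowest of them, Tmem119, had a mean of 4.54 CPM. The 8 erythroid markers that could be read, including 4 globin genes, summed to between 0.0945 and 0.933 CPM in every library. All 9 tested astrocyte markers had fitted changes below 0 in KO, 1 of them (S100b) at an unadjusted p under 0.05 and none past the adjusted threshold, with summed levels of 30.1 to 137 CPM in KO and 34.2 to 260 CPM in WT. Fitted changes were also below 0 for 8 of 9 oligodendrocyte lineage markers (median −0.39 on the log2 scale), 9 of 10 neuronal markers (−0.30) and 5 of 5 fibroblast and meningeal markers (−0.30), and above 0 for 9 of 10 microglial (0.034) and 6 of 7 border macrophage markers (0.13), none past the adjusted threshold. Pdgfra is counted on both the oligodendrocyte lineage list and the fibroblast and meningeal list. The part of any of these marker lists in the values below was not tested. In RNA from whole cultures, fewer cells of a type and less RNA per cell cannot be told apart.

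Iron enters most cells bound to transferrin through the transferrin receptor, leaves the endosome through a metal transporter, and is either used, stored inside the ferritin shell or exported through ferroportin. Macrophages also recover iron from heme, which heme oxygenase opens. Iron regulatory proteins bind a hairpin, the iron-responsive element, in the messages of several of these genes when iron is scarce. Bound at the start of a message they block its translation, and bound in the tail they protect it from decay. A count of messages therefore reads the second form of control more directly than the first.

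The hairpins that a search of the UTRs found are shown because their place, at the start or in the tail, sets the form of control described above. The search was made on the transcript strand for a bulged C, 5 bases, the letters CAGTG, 1 further loop base and 5 bases, where both runs of 5 had to pair with each other (G with T allowed). A match was found in 4 of the 10 genes. Across all annotated genes it was found in 160 of 21175 with a UTR (0.756%), of which 31 of 20916 had it in a 5′ UTR (0.148%) and 129 of 21039 in a 3′ UTR (0.613%). Sequences come from the GENCODE M21 transcripts of the GRCm38 genome and are written 5′ to 3′ as the message reads, with the 6 loop bases in capitals. The first lies in the Fth1 5′ UTR at chr19:9982732-9982760 on the plus strand, the second in the Ftl1 5′ UTR at chr7:45459779-45459807 on the minus strand, and the third in the Slc40a1 5′ UTR at chr1:45925465-45925493 on the minus strand.
Fth1: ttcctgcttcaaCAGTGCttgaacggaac
Ftl1: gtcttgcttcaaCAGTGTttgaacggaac
Slc40a1: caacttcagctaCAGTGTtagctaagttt

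Tfrc alone among the 10 gave a match in its 3′ UTR, with 4 matches by this search within chr16:32631219-32631738 on the plus strand. The elements start at positions 32631219, 32631598, 32631663 and 32631710, in the order printed.
Tfrc element 1: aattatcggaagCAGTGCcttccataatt
Tfrc element 2: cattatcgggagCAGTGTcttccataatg
Tfrc element 3: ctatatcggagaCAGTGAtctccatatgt
Tfrc element 4: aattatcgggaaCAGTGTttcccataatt

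The elements of Fth1 and Ftl1 were identical at 26 of the 29 bases shown, and each matched that of Slc40a1 at 13. The Slc40a1 element matched those of Tfrc at 13 to 16 bases. All elements share the bulged C and the letters CAGTG because the search required them. The 4 Tfrc elements matched one another at 18 to 25 bases. No match in Slc11a1, Slc11a2, Hmox1, Ireb2, Aco1 or Ncoa4 says only that this combination of letters and pairing is not in their annotated UTRs. An element of another form would be missed, so these genes are not shown to lack one. The loop letters CAGTG alone are common, present in a UTR of 77.7% of genes, so that the paired stem sets the match apart.

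None of the 10 iron genes passed the test between KO and WT microglia at an adjusted p under 0.05 (edgeR quasi-likelihood test, 7 against 7, Benjamini-Hochberg adjustment over 15700 genes). Across all tested genes 3 passed (0.0191%). At an unadjusted p under 0.05 stood 1 of the 10, Slc11a1, which was higher in KO, against 529 of all tested genes (3.37%). Of all tested genes at that threshold, 274 were higher (1.75%) and 255 lower in KO (1.62%), where the 10 members held 1 and 0. DESeq2 was run without the filter on low counts, tested 34582 genes and adjusted over 24524. It gave 0 members past the adjusted threshold (16 of all genes, 0.0652%) and 1 at an unadjusted p under 0.05 (2.04% of all genes). In every one of the 10 the ranges of the genotypes overlapped, and over all tested genes they did not overlap for 13 (0.0828%). Fitted changes were above 0 for 7 members and below 0 for 3, with a median of 0.033 on the log2 scale, where the median of all tested genes was 0.0016. The largest fitted change among the 10 was 0.10, and the widest 95% interval, that of Slc40a1, ran from −0.17 to 0.37. Thus the intervals of all 10 in this fit, which did not pair libraries, lay between 0.858-fold and 1.29-fold.

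**Figure D1:**
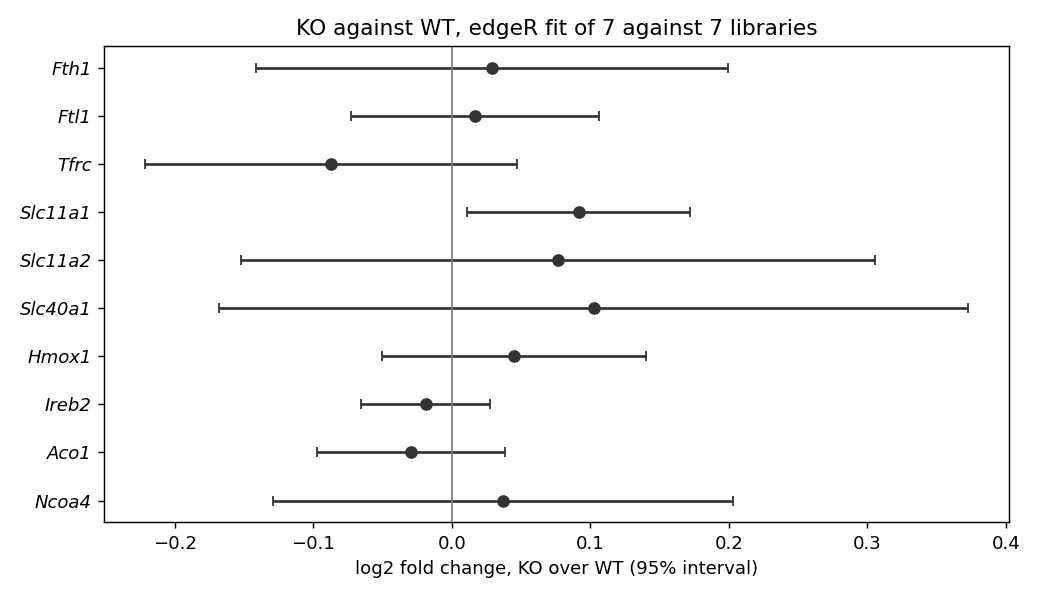
Fitted log2 fold change, KO over WT, of the 10 iron genes (points) with the 95% interval of the edgeR fit (bars; 7 libraries per genotype). The interval spans 0 for 9 genes and lies above 0 for Slc11a1, from 0.011 to 0.17, and it is narrowest for Ireb2.

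The ferritin chains were among the most abundant messages of these cells. Ftl1 (ENSMUSG00000050708, chr7:45457944-45459884, minus strand) encodes the light chain, which aids formation of the iron core, and Fth1 (ENSMUSG00000024661, chr19:9980598-9985098, plus strand) the heavy chain, whose ferroxidase activity converts iron to its storable form. By CPM, Ftl1 ranked 9 and Fth1 15 among all genes of the table. In KO libraries Ftl1 had a lowest, median and highest level of 5526, 5883 and 6607 CPM, and in WT libraries 5666, 5806 and 6344 CPM. The highest library in each genotype was replicate 1, and the WT range lay inside the KO range. The change of Ftl1 was 0.017 ± 0.042 (log2, SE; adjusted p = 0.972, edgeR), with an interval of 0.951-fold to 1.08-fold.

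Fth1 varied more than Ftl1 between libraries of the same genotype. Its lowest, median and highest levels were 2961, 3718 and 4189 CPM in KO and 2980, 3666 and 3938 CPM in WT. The lowest library of each genotype was replicate 5. The fitted change was 0.029 ± 0.080 (log2, SE; adjusted p = 0.973, edgeR), and the interval ran from 0.907-fold to 1.15-fold. Leaving out KO replicate 1 turned the fitted change to −0.0083, and leaving out WT replicate 5 turned it to −0.010.

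Together the ferritin chains held 0.956% ± 0.077 of all counted reads in KO and 0.949% ± 0.0506 in WT (SD, n = 7 each). Per kilobase of merged exons, Ftl1 exceeded Fth1 by 4.25 ± 0.462 times in KO and 4.27 ± 0.326 times in WT, with overlapping ranges of 3.84 to 5.14 and 3.92 to 4.92. By CPM, with no scaling for length, the ratio was 1.64 ± 0.178 in KO and 1.65 ± 0.126 in WT. The merged exons of Fth1 span 3469 bases, and a shorter annotated Fth1 transcript spans 929. The ratio per kilobase therefore depends on the length used. Ferritin genes have many processed copies in the mouse genome. 7 same-strand copies of Ftl1 and 1 of Fth1 were annotated, and of these Ftl1-ps1 held the most reads, with a mean of 400 counts per library, against 255993 for Ftl1 itself. Reads shared between a gene and its copies could have been counted at either or dropped. Dropped reads appear in no count, so the absolute ferritin levels, ranks and shares are uncertain by an unknown amount. Gm10252 overlaps Ftl1 on the opposite strand and held 843 counts, or 0.329% of the Ftl1 count. The counting was not stated to use strand, so that reads of Ftl1 and Gm10252 cannot be told apart.

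**Figure D2:**
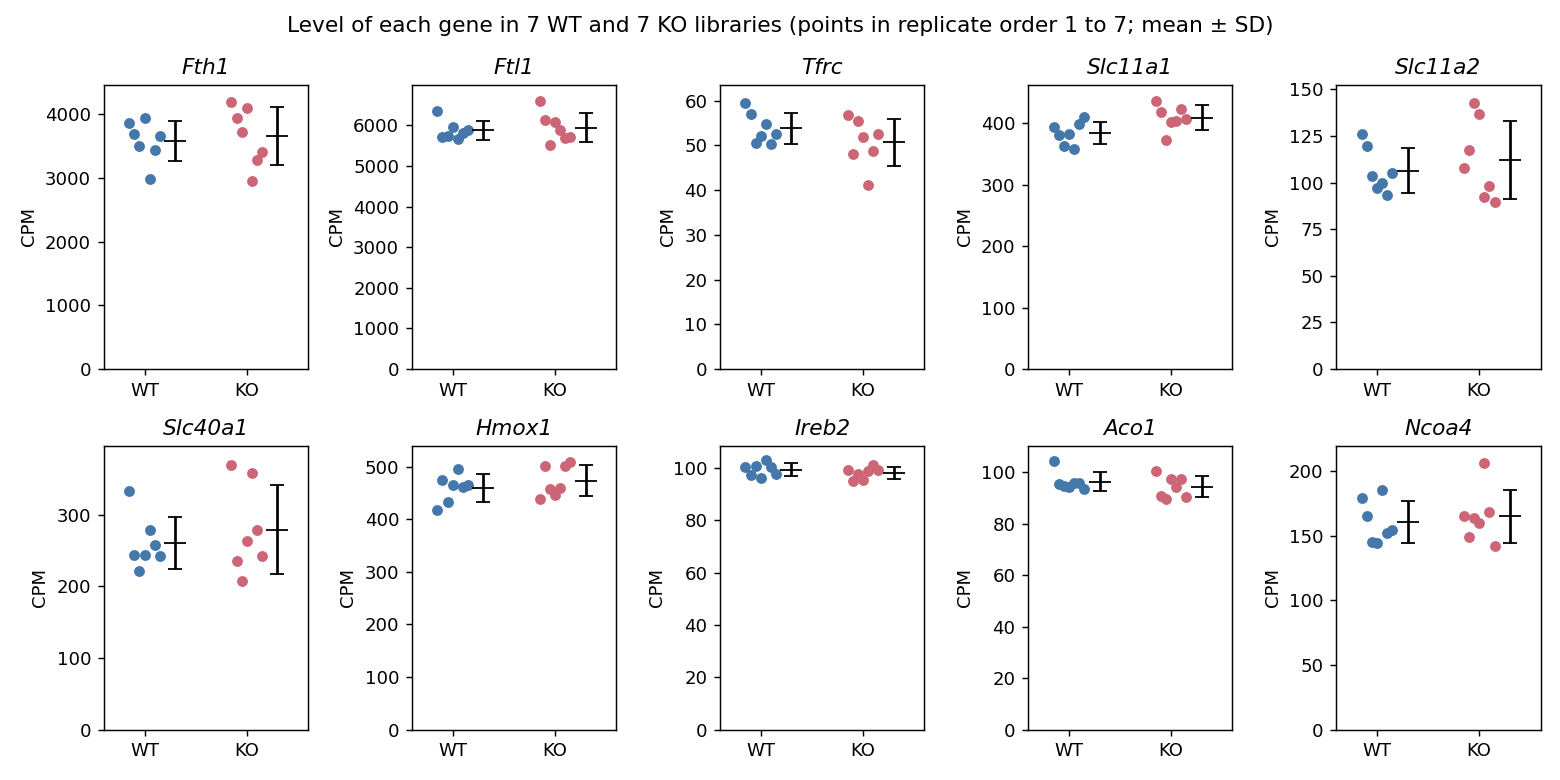
CPM of the 10 iron genes in each WT (blue) and KO (red) library, 1 panel per gene with an axis from 0; points stand in replicate order and bars give mean ± SD (n = 7). Points of both genotypes overlap in every panel, and the spread is smallest for Ireb2, from 95.1 to 103 CPM over all 14 libraries.

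Of the importers, the endolysosomal transporter Slc11a1 (ENSMUSG00000026177, chr1:74375195-74386062, plus strand) gave the smallest p of the 10. The gene encodes a macrophage protein that moves iron and manganese out of phagosomes, and C57BL/6 mice are known to carry an allele of it with impaired function, which a count of messages does not show. Levels in KO were 373, 407 and 437 CPM (lowest, median, highest) and in WT 359, 383 and 410 CPM. 3 KO libraries, replicates 1, 2 and 6, lay above every WT library, and no KO library lay below the WT range. The mean was 409 ± 20.3 CPM in KO and 384 ± 18.5 CPM in WT, a change of 0.092 ± 0.038 (log2, SE; unadjusted p = 0.0284, adjusted p = 0.943, edgeR), so that it did not pass. Its unadjusted p was above 0.05 when KO replicate 1 (0.0840), 2 (0.0714) or 6 (0.0651) or WT replicate 3 (0.0626) or 5 (0.0608) was left out, and with upper-quartile factors (0.0768) or library totals alone (0.0590) as the scaling. In the other alternatives it stayed under 0.05. Over all edgeR and DESeq2 fits the smallest unadjusted p was 0.0030 and the smallest adjusted p 0.517.

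Tfrc (ENSMUSG00000022797, chr16:32608920-32632794, plus strand), the transferrin receptor, had the lowest level of the 10, with KO libraries at 41.2, 51.8 and 56.9 CPM and WT libraries at 50.3, 52.7 and 59.6 CPM. 3 KO libraries lay below all WT libraries, of which replicate 5 was the lowest. The fitted change was −0.087 ± 0.063 (log2, SE; adjusted p = 0.943, edgeR), with an interval of 0.858-fold to 1.03-fold. The fitted change was below 0 whichever library was left out, from −0.12 to −0.043.

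Slc11a2 (ENSMUSG00000023030, chr15:100387898-100425072, minus strand) encodes DMT1, which carries ferrous iron out of the endosome. KO libraries ranged from 89.5 to 143 CPM around a median of 108, and WT libraries from 93.1 to 126 CPM around 104. KO replicates 3 and 4 stood above all WT libraries, and KO replicates 5 and 7 below them, so that the KO range contained the WT range. The change was 0.077 ± 0.11 (log2, SE; adjusted p = 0.948, edgeR; interval 0.900-fold to 1.24-fold). It was 0.0082 without KO replicate 3, 0.023 without KO replicate 4 and 0.045 without WT replicate 6, and 0.12 to 0.13 without KO replicate 5 or 7 or WT replicate 1.

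Slc40a1 (ENSMUSG00000025993, chr1:45908068-45926523, minus strand), which encodes ferroportin, the known iron exporter of vertebrate cells, varied most. KO levels were 207, 264 and 369 CPM and WT levels 221, 244 and 333 CPM. In KO, replicates 1 and 5 stood at 369 and 358 CPM and the other 5 at 278 or less, and in WT replicate 1 stood at 333 CPM with replicate 5 next at 278. Its change was 0.10 ± 0.13 (log2, SE; adjusted p = 0.945, edgeR; interval 0.890-fold to 1.29-fold), and it was 0.019 without KO replicate 1, 0.032 without KO replicate 5, 0.067 without WT replicate 3, 0.16 without KO replicate 3 and 0.17 without WT replicate 1. The gap between the highest and lowest library, 1.78-fold, was thus wider than any difference between genotypes inside that interval.

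Hmox1 (ENSMUSG00000005413, chr8:75093621-75100589, plus strand) encodes the inducible heme oxygenase, which releases iron from heme and responds strongly to heme and oxidative stress. It was the most abundant of the 10 after ferritin, at 439, 460 and 509 CPM in KO and 417, 466 and 496 CPM in WT. The lowest library of both genotypes was replicate 1. The change of 0.045 ± 0.045 (log2, SE; adjusted p = 0.943, edgeR) had an interval of 0.966-fold to 1.10-fold.

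The iron regulatory proteins are encoded by Aco1 (ENSMUSG00000028405, chr4:40143081-40198338, plus strand), which doubles as the cytosolic aconitase when it holds an iron-sulfur cluster, and Ireb2 (ENSMUSG00000032293, chr9:54863789-54912530, plus strand), which is degraded when iron is plentiful. Ireb2 was the steadiest of the 10, with 95.1, 98.8 and 101 CPM in KO and 96.2, 100.3 and 103 CPM in WT. Its biological coefficient of variation in the edgeR fit, 0.0381, placed it at percentile 0.898 of all tested genes, where 0 is the least variable. The change was −0.019 ± 0.022 (log2, SE; adjusted p = 0.943, edgeR), and differences beyond 0.956-fold and 1.02-fold lay outside the interval. Aco1 reached 89.8, 94.4 and 100.4 CPM in KO and 93.5, 95.5 and 104 CPM in WT, with a change of −0.030 ± 0.032 (log2, SE; adjusted p = 0.943, edgeR).

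Ncoa4 (ENSMUSG00000056234, chr14:32159865-32179855, plus strand) encodes the receptor that delivers ferritin to the lysosome for iron release. KO levels were 142, 164 and 206 CPM and WT levels 144, 155 and 185 CPM. Replicate 5 was the highest in both genotypes. The change was 0.037 ± 0.078 (log2, SE; adjusted p = 0.968, edgeR; interval 0.914-fold to 1.15-fold), and without KO replicate 5 it was −0.024.

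Levels were compared between genes per kilobase of merged exons (RPKM), which scales for annotated gene length but not for which transcripts are used. The order depends in part on this length. The order over all 14 libraries was Ftl1 (4410 ± 219 RPKM, SD), Fth1 (1043 ± 110), Hmox1 (266 ± 15.9), Slc11a1 (107 ± 6.15), Slc40a1 (29.9 ± 5.55), Aco1 (21.2 ± 0.864), Ncoa4 (17.4 ± 1.91), Slc11a2 (17.2 ± 2.64), Ireb2 (10.4 ± 0.244) and Tfrc (8.45 ± 0.743). Storage messages therefore stood above the heme, transport and regulatory messages in every library. Neighbouring ranges overlapped for 3 of the 9 steps. Slc40a1 exceeded Aco1 in 14 of 14 libraries although their ranges overlapped, Aco1 exceeded Ncoa4 in 13, and Ncoa4 exceeded Slc11a2 in 7. The last pair thus had no order by merged exons. By the longest transcript, Ncoa4 stood at 34.4 RPKM and Slc11a2 at 24.8. The exporter Slc40a1 stood above the importers Slc11a2 and Tfrc, and below Slc11a1.

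**Figure D3:**
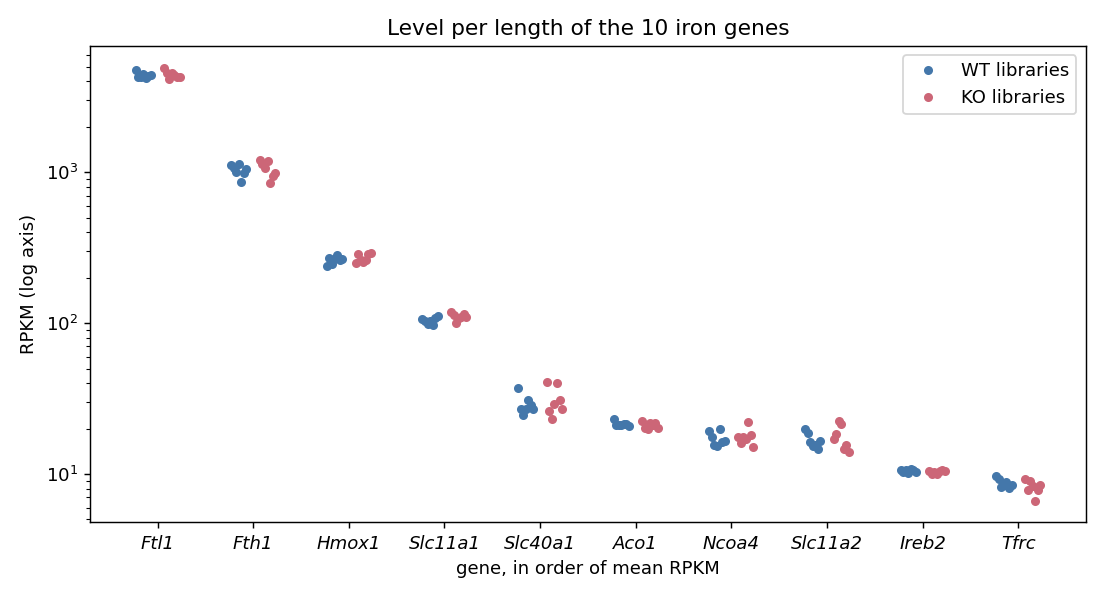
RPKM of the 10 iron genes on a log axis, in order of mean level, with 1 point per WT (blue) and KO (red) library. Levels fall from 4410 RPKM for Ftl1 to 8.45 for Tfrc, and within each gene the genotypes lie over each other.

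The genes fell into no single pattern across libraries. After the mean of each genotype was subtracted from log2 CPM, 45 pairs of the 10 genes were compared over the 14 libraries, which share preparation, depth scaling and cell make-up, so that the correlations are descriptive. Slc40a1 and Aco1 moved most alike (Pearson r = 0.79, Spearman rho = 0.87; r = 0.86 without the 2 libraries farthest from the Slc40a1 median). In each pair below, the 2 libraries left out were those farthest from the median of the first-named gene, Fth1 for the ferritin chains. The ferritin chains gave r = 0.62 (rho = 0.71; 0.75 without 2 libraries), and Slc40a1 with Ncoa4 gave r = 0.68 (rho = 0.69; 0.65 without 2). Ftl1 with Slc40a1 gave r = 0.64, but rho was 0.37 and r fell to 0.19 without 2 libraries, so the value rests on those libraries. The lowest correlation was that of Fth1 with Ireb2 (r = −0.66, rho = −0.66; −0.63 without 2), where Ireb2 itself varied by no more than 1.08-fold in all. Fth1 and Slc40a1, both with the element in the 5′ UTR, had r = −0.12 (rho = −0.064), and r was 0.36 without 2 libraries, so that their relation had no stable sign.

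**Figure D4:**
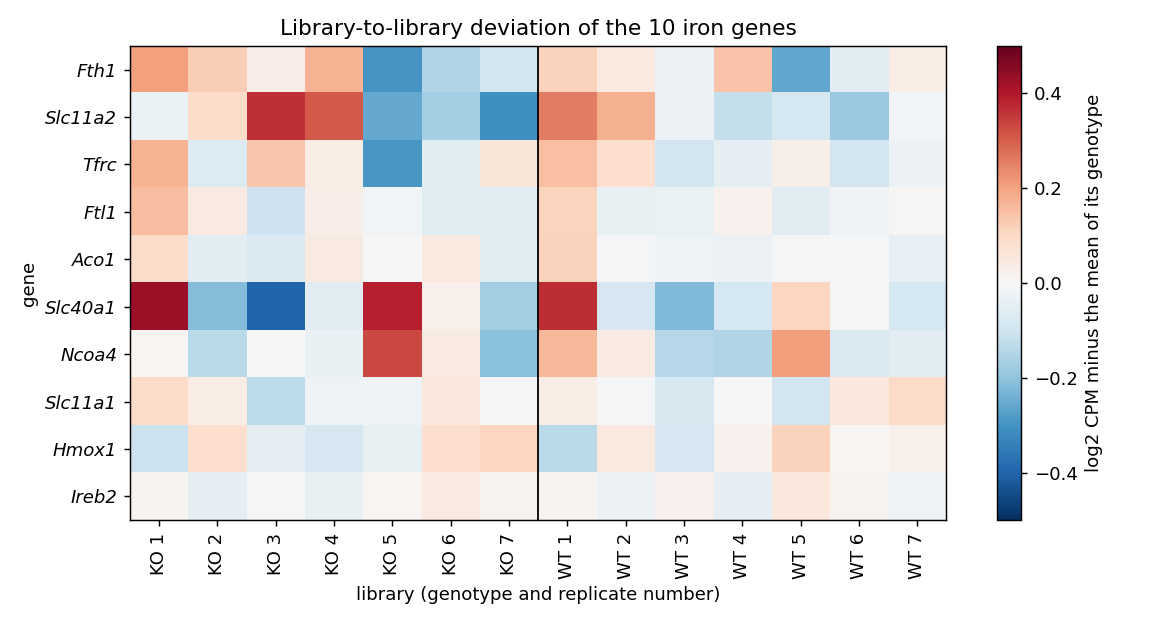
Deviation of each iron gene (rows) in each library (columns, KO left and WT right) from the mean of its genotype, in log2 CPM, red above and blue below. Slc40a1 is highest in replicate 1 of both genotypes and Fth1 lowest in replicate 5 of both, while the row of Ireb2 is nearly blank.

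Marker levels of other cells and of cell division moved with some members across the 14 libraries. Each member was set beside each marker sum, and only the strongest correlations by Pearson r are given here, picked after all were seen. Those given had the same sign within both genotypes. Others did not, such as Tfrc with the astrocyte markers (r = 0.53 within KO and −0.64 within WT). The log2 of the summed CPM of the proliferation markers ran opposite to Slc11a2 (r = −0.89, rho = −0.91; −0.95 within KO and −0.69 within WT). Ncoa4 ran opposite to the astrocyte markers (r = −0.84, rho = −0.82) and the oligodendrocyte lineage markers (r = −0.77, rho = −0.76) and with the border macrophage markers (r = 0.79, rho = 0.70). Each sum is weighted to its most abundant markers, so it need not follow the cell type as a whole. In the border macrophage sum Mrc1 had a mean of 438 CPM and Lyve1 0.042. Mbp had 62.6 CPM in the oligodendrocyte lineage sum and Pcna 322 CPM in the proliferation sum. In the fibroblast and meningeal sum the highest mean, 5.59 CPM, was that of Pdgfra, which is also on the oligodendrocyte lineage list. Fth1 ran opposite to the microglial markers (r = −0.77, rho = −0.79) and the endothelial and mural markers (r = −0.75, rho = −0.70) and with the fibroblast and meningeal markers (r = 0.76, rho = 0.67), although the latter summed to no more than 31.2 CPM in any library. Ftl1 also ran opposite to the microglial markers (r = −0.74, rho = −0.58). Slc40a1 ran with the erythroid markers (r = 0.76, rho = 0.79), whose sum stayed under 1 CPM in every library. All 17 proliferation markers had fitted changes below 0 in KO (median −0.11 on the log2 scale), none of them past the adjusted threshold. Their summed level had a lowest, median and highest value of 515, 692 and 921 CPM in KO and 643, 683 and 854 CPM in WT. The KO range thus contained the WT range. These markers' part in the levels of the iron genes was not tested.

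For each member, the 3 genes whose deviations were most like its own were sought among 8489 tested genes that were not members and had a mean of at least 10 CPM. For Slc11a2 these were Aars (r = 0.96), Atf5 (0.96) and Asns (0.92), which encode the alanyl-tRNA synthetase, a transcription factor and asparagine synthetase. Fth1 was closest to Capg (0.95), Vim (0.95) and Slc20a1 (0.94), which encode an actin-capping protein, the filament protein vimentin and a phosphate transporter. Ftl1 was closest to Eif4a1 (0.98), a translation initiation factor, followed by Colgalt1 (0.95) and Nkiras2 (0.94). The nearest to Slc40a1 were Pgap1 (0.93), Rpl10a (0.92) and Cd28 (0.91), and to Ncoa4 Arhgap19 (0.93), Snap29 (0.92) and Tbc1d2b (0.92).

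For the remaining members the closest gene had a lower correlation. Slc11a1 was nearest to Mlec (0.89), Grap (0.89) and Pgd (0.87), Aco1 to Plekhb2 (0.90), Jtb (0.89) and Myo1f (0.88), and Ireb2 to Mtmr4 (0.87), Ube3a (0.85) and Zfp398 (0.85). Hmox1 was nearest to Id1 (0.84), Ctnnbip1 (0.82) and Hk1 (0.80), and Tfrc to Slc7a1 (0.82), a carrier of basic amino acids, Sos2 (0.81) and Kmt5a (0.81). These genes were picked as the highest of many correlations over 14 libraries, and none of their likeness was tested.

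Beyond the 10 genes, 77 further genes of iron and heme handling were examined in 7 lists. Of these, 65 passed the filter on low counts, 0 passed at an adjusted p under 0.05 (edgeR, beside 0.0191% of all tested genes), and 4 stood at an unadjusted p under 0.05 (6.15%, beside 3.37%). By DESeq2, run without that filter, 0 of the 77 passed and 6 stood at an unadjusted p under 0.05. Over all 34582 genes it tested, 704 did (2.04%). That background includes genes below the filter, so it is not like the 3.37% of edgeR. Fitted changes were above 0 for 35 and below 0 for 30, with a median of 0.0046 on the log2 scale. No list had more than 1 gene at an unadjusted p under 0.05.

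On the transferrin route, where 8 of 11 genes were tested, Steap3, an endosomal iron reductase, had 11.5, 12.3 and 14.7 CPM in KO and 12.5, 14.9 and 16.8 CPM in WT, a change of −0.19 ± 0.081 (log2, SE; unadjusted p = 0.0363, adjusted p = 0.943, edgeR). Cybrd1, a plasma membrane iron reductase, was below 3 CPM in every library, with a change of −0.86 ± 0.57 (log2, SE; adjusted p = 0.943) that was −0.30 without WT replicate 4. Among the ferroxidases and hepcidin genes only 2 of 8 were tested, Cp (0.10 ± 0.25, log2, SE) and Heph (−0.31 ± 0.38), which encode the ferroxidases ceruloplasmin and hephaestin. Hamp, the gene for the hormone hepcidin that binds ferroportin, had 7 reads in all 14 libraries together and was named after its values were seen. Among iron chaperones and storage genes, 6 of 7 tested changes were above 0, from 0.0052 to 0.14, and none passed. The lowest p there belonged to Lcn2 (−0.49 ± 0.54; −0.24 without WT replicate 4 and −0.80 without KO replicate 7), a siderophore-binding protein, and Usp24 (0.034 ± 0.048), a deubiquitinase.

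In mitochondrial iron handling and iron-sulfur cluster assembly all 15 genes were tested and lay between −0.084 and 0.033 on the log2 scale. Ciapin1, which acts in cytosolic cluster assembly, had 22.3, 22.8 and 24.4 CPM in KO and 22.8, 23.7 and 27.0 CPM in WT (change −0.084 ± 0.038, log2, SE; unadjusted p = 0.0454, adjusted p = 0.943, edgeR). In heme synthesis, 8 of 9 genes were tested, and the lowest p belonged to Ppox (0.063 ± 0.040) and Alas1 (0.047 ± 0.032), the latter the first enzyme of the pathway in most cells.

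Heme handling held 12 tested genes of 13, with 10 changes above 0 and 2 below. Spic, a transcription factor known from macrophages that clear red blood cells, had the smallest p of the 65 and was barely present, at 0.370, 0.454 and 0.878 CPM in KO and 0.227, 0.287 and 0.467 CPM in WT. The 252 reads behind it over 14 libraries gave a change of 0.70 ± 0.24 (log2, SE; unadjusted p = 0.010, adjusted p = 0.943, edgeR), and the ranges overlapped. Bach1, the heme-sensing repressor of Hmox1, changed by 0.058 ± 0.037 (log2, SE; adjusted p = 0.943). Among the 13 targets and regulators of the oxidative stress response, Mt2, a metallothionein, had 1.65, 2.75 and 5.08 CPM in KO and 2.04, 3.87 and 9.82 CPM in WT, a change of −0.77 ± 0.34 (log2, SE; unadjusted p = 0.0399, adjusted p = 0.943, edgeR). Its deviations followed the summed astrocyte markers over the 14 libraries with r = 0.99. Among the other tested genes named from these lists, r was above 0 for Cybrd1 (0.93), Nqo1 (0.87), Heph (0.82), Lcn2 (0.82), Steap3 (0.62), Ciapin1 (0.60) and Alas1 (0.28). It was below 0 for Bach1 (−0.61), Spic (−0.42), Ppox (−0.34), Usp24 (−0.29) and Cp (−0.23). The part of these markers in the changes was not tested. Nqo1, a quinone reductase, changed by −0.65 ± 0.33 (log2, SE; adjusted p = 0.943).

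**Figure D5:**
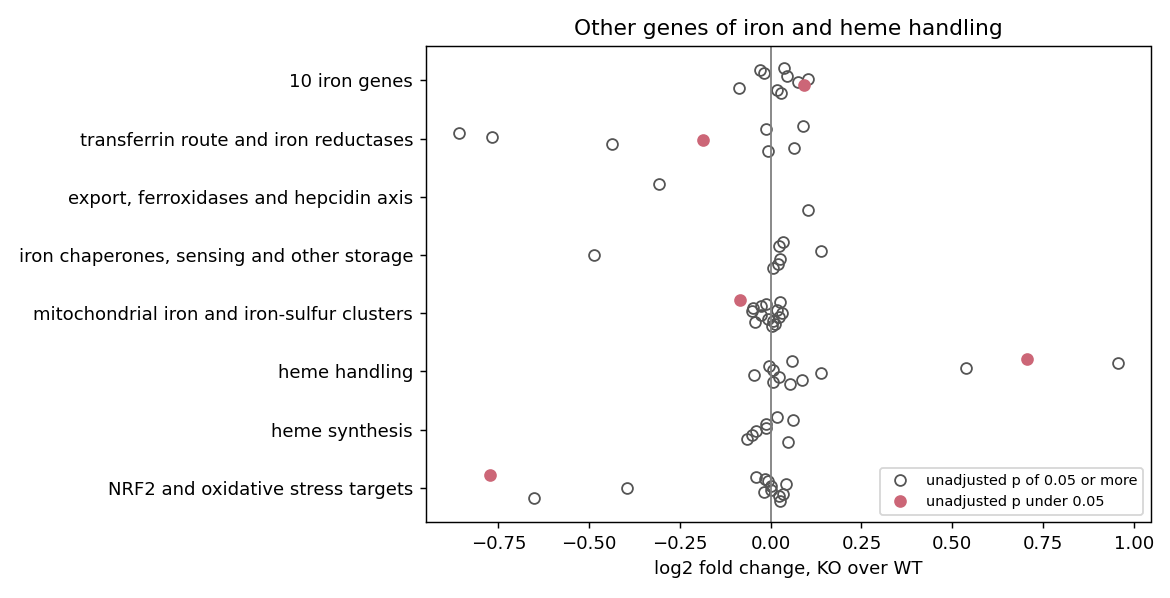
Fitted log2 fold change, KO over WT, of the 10 iron genes (top row) and of the 65 tested genes of 7 further lists; each point is a gene, filled where the unadjusted p is under 0.05. Most points lie close to 0, and the filled points outside the top row are Steap3, Ciapin1, Spic and Mt2.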

How the data were processed

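The 10 genes and the wider gene lists were chosen with earlier results of these data known. Poly(A) RNA of 14 libraries, grouped by the genotype in the labels, was sequenced as paired-end reads. Per the submitters' processing notes, Trimmomatic 0.36, STAR 2.5.2b, featureCounts of Subread 1.5.2 and the GRCm38 build were used. The deposited values are raw read counts per Ensembl gene, which the authors did not normalize. The strand setting and the treatment of reads that map to several places are not given in the sources used here, and neither is the batch of each library, which the study's own model held as a covariate. No batch term could therefore be fitted, and no value within batches is given.

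Gene names, exons and UTRs were taken from GENCODE M21, which matched 49056 of 49315 genes. Ahsp, on the erythroid list, was not analysed here. No genome sequence was used, so copies of the ferritin genes were sought among annotated transcripts by blastn (at least 90% identity over 150 bases) and not in the genome as intended. Low genes were removed by filterByExpr at its minimum of 10 counts and total of 15, TMM factors were applied, and genotypes were compared with the two-sided quasi-likelihood test of edgeR 4.0.16 (R 4.3.3), KO over WT, with a Benjamini-Hochberg adjusted p under 0.05 as the threshold over 15700 genes. Standard errors and 95% intervals come from that fit. On simulated counts its calls found 76 of 100 genes with a planted log2 change of 1. They found 69 of 100 with a smaller planted change, and 7 of 152 calls were false. The standard errors and intervals themselves were not tested on simulated data. CPM are TMM-scaled, log2 CPM used a prior count of 1, and RPKM divides CPM by the length of merged exons. DESeq2 1.42.0, other scalings and filters, a replicate block and leaving out each library were alternatives. Named genes were the members, the 2 smallest p of each further list with all under 0.05, the 3 genes most like each member, Timp2, and markers with the highest or lowest level in the lists described; 2 genes under this rule are not reported here. The p-values measure the spread between separately isolated pools.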

Additional observations from a re-analysis of the deposited data

Results flagged for a closer look

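Among 50 groups of 7 libraries examined, 4 held a single library far from the other 6, where chance gives about 1 in 20. Aco1 was highest in WT replicate 1, at 6.71 log2 CPM, or 104 CPM against 93.5 to 96.0 in the others. Bach1 was lowest in WT replicate 6, at 7.49 log2 CPM, or 180 CPM against 192 to 201. Ciapin1 was highest in KO replicate 1, at 4.61 log2 CPM, or 24.4 CPM against 22.3 to 23.2. Timp2 was highest among KO libraries in replicate 4, at 7.01 log2 CPM, or 129 CPM against 120 to 123, and that library still lay far below every WT library. Their causes were not tested.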

How the results depend on the processing

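None of the 10 members was called under any of 23 alternatives (other scalings, filters, dispersion and tools, the replicate block, and each library left out), nor Fth1 or Ftl1 with the counts of their copies added, and 228 of 232 member values kept their direction. With 1 library left out in turn, Fth1 ran from −0.010 (without WT replicate 5; −0.0083 without KO replicate 1) to 0.074, Ftl1 from −0.013 (without KO replicate 1) to 0.038 and Ncoa4 from −0.024 (without KO replicate 5) to 0.074. Of the further genes, Cp ran from −0.12 (without KO replicate 3) to 0.23, Heph from −0.52 to 0.017 (without WT replicate 4) and Usp24 from −0.0021 (without WT replicate 4) to 0.057. The count of members at an unadjusted p under 0.05 was 0 with upper-quartile factors and with library totals alone, and 0 to 1 with 1 library left out. The same count over the further iron genes was 8 with no filter on low counts, where more genes are tested, and 1 to 6 with 1 library left out. All genes called numbered 16 by DESeq2 and 27 by DESeq2 with the replicate block, against 3 by edgeR, also with the block. Same-numbered KO and WT libraries were not treated as pairs in the main fit. Over all tested genes their deviations correlated from −0.20 to 0.74, with 3 of 7 above 0.1, and 3 of the 14 libraries correlated best with their own number. The block changed no call among the iron genes, and Slc11a1 was 0.092 with it (unadjusted p = 0.0069). Between same-numbered libraries, KO and WT deviations correlated at 0.92 for Slc40a1, 0.90 for Fth1, 0.73 for Ftl1, 0.69 for Aco1 and 0.63 for Ireb2. The values were 0.59 for Slc11a1, 0.53 for Ncoa4, 0.43 for Hmox1, 0.068 for Slc11a2 and 0.0068 for Tfrc. The standard errors and intervals given above come from the fit without the block. With the longest transcript as the length in place of merged exons, levels were 6105 RPKM for Ftl1, 1755 for Fth1, 297 for Hmox1, 146 for Slc11a1, 68.6 for Slc40a1, 34.4 for Ncoa4, 24.9 for Aco1, 24.8 for Slc11a2, 17.1 for Ireb2 and 10.7 for Tfrc, so that Ncoa4 then stood above Aco1. Depth limits genes such as Spic and Hamp, not the members, whose least abundant, Tfrc, had a mean of 2268 reads per library. Protein, translation and iron itself are not measured by these counts.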
